A study of Homo sapiens with 15 samples.

Results

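Solute carriers are membrane proteins that move small molecules across the cell surface and organelle membranes, and the genes described here are those of every solute carrier family except SLC25, the mitochondrial carriers. The rule took symbols made of SLC, a family number, a letter and a member number, and used no values. It gave 170 of the 13056 genes in the table, from 44 families, and was set with earlier results of these data known. The study profiled RNA from HEK293T, a human embryonic kidney cell line, after short hairpin RNAs (sh) against candidate regulators of alternative polyadenylation. All 15 libraries came from cells with a hairpin: 3 with shControl, whose genotype is labelled WT, and 2 each with shHDAC1, shPABPN1, shPCBP2, shSF3B4, shU2AF2 and shZNF384. The design text lists 5 of the targets as regulators, and ZNF384 stands in the sample labels alone. No time or dose is labelled, nothing says whether replicates were separate cultures, and a p-value here therefore speaks of the spread among these libraries alone.

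Many genes have more than 1 poly(A) site in the last exon, and the site that is used sets how much of the 3' untranslated region the messenger RNA carries. That region can hold binding sites for microRNAs and RNA-binding proteins, which for carriers can bear on how long the message lasts and where it is translated. Solute carriers bring in sugars, amino acids and vitamins, exchange ions, load the Golgi with nucleotide sugars and move metals between compartments. The measurement is PDUI, an index of how far the distal poly(A) site is used, given as a fraction: near 1 the messages of a gene were estimated to end at the far site, and near 0 at the near site. Among the targets, PABPN1 is the nuclear poly(A)-binding protein, U2AF2 and SF3B4 take part in recognising the 3' splice site and the branch point, PCBP2 is a KH-domain protein that binds C-rich RNA, HDAC1 is a histone deacetylase and ZNF384 is a zinc finger protein.

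Sequence letters around the annotated transcript ends are shown for 6 genes whose results are described below, to show the poly(A) signal hexamer next to each annotated end. Each is a window of 30 bases from GENCODE release 29 (GRCh38, the assembly also called hg38), 5' to 3' on the gene's own strand. Capitals mark the last AATAAA within the last 50 bases, or the last ATTAAA where no AATAAA was found there.
SLC49A4 (chr3:122881110-122881139, plus strand): tcttctgaaataaaaatgaAATAAAaggaa
SLC48A1 (chr12:47782720-47782749, plus strand): acttttaaagcaAATAAAacatttattgtt
SLC12A4 (chr16:67943478-67943507, minus strand): ttggactttggcAATAAAggagcgccagac
SLC6A8 (chrX:153696553-153696582, plus strand): tgcagacatagcAATAAAaacatgtcattt
SLC35C2 (chr20:46345991-46346020, minus strand): gatatcgaagtcATTAAAacatggtctctg
SLC35A3 (chr1:100035602-100035631, plus strand): tccctggcatctAATAAAacactgacaaca
SLC35C2 has the variant hexamer ATTAAA, and the other windows shown have AATAAA. The window of SLC49A4 holds a further AATAAA, in lower case. Over all 170 carriers, the last 50 bases held AATAAA in 69.4% of the transcripts, against 60.6% of the transcripts of all genes that could be matched. ATTAAA without AATAAA was found in 12.4% of the carriers and 13.96% of all genes. Both motifs were searched on the sense strand, and a match is a description and not a mapped site. The median last exon was 1760 bases long in carriers and 1372 bases in all genes. All 170 transcripts were found in that release, 88 of them in the same version as in the table. Of the 6 shown, SLC35C2 alone has the same version, so the other ends may differ from those behind the PDUI values.

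The libraries were alike in the carriers: over the 147 members with a value in all 15, 2 libraries of the same group correlated at r = 0.906 to 0.953 (9 pairs) and libraries of different groups at 0.874 to 0.955 (96 pairs), a description over genes, which are not replicates. The library mean of these members ran from 0.605 to 0.683. The lowest was shControl replicate 1, at 0.605, while the other shControl libraries stood at 0.661 and 0.664. Next lowest were the shPABPN1 libraries, at 0.6125 and 0.6213, and both shZNF384 libraries were at 0.683. Because shControl replicate 1 stands apart from the other shControl libraries, the count of called carriers in each comparison is also given without it. The names of the shControl libraries end in nuc and those of the knockdowns do not, and the labels speak of both nuclear and total RNA. What this ending means is not stated, and a difference in preparation cannot be told apart from the knockdowns in any comparison with shControl. Read counts are not part of the table, which leaves the depth of each value unknown, and PDUI gives no RNA amount by which a knockdown or the cell line could be checked.

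In shControl, carriers were mostly read out to the distal site. Their median PDUI was 0.707, with quartiles of 0.430 and 0.887, over the 169 members with a control value. The median of all 13006 genes with a control value was 0.573. PDUI was above 0.9 in 22.5% of the carriers and 16% of all genes, and below 0.1 in 7.69% and 8.78%. The carriers were slightly noisier, with a median SD within groups of 0.0603 against 0.0511. Across carriers, the level went only weakly with the length of the last exon (Spearman's rho 0.162 over 169 members, 0.141 over 12656 genes).

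The classes of transported solute overlapped widely in their levels. Metal carriers had a median of 0.778 and ran from 0.0167 to 1, and amino acid carriers had a median of 0.690 and ran from 0.04 to 1. The lowest class median was 0.597, in carriers of chloride, bicarbonate and sulphate, and the highest was 0.883, in a class of 5 phosphate and vesicular carriers. A total of 10 members stood at 1 in all 15 libraries. They include SLC38A1 and SLC38A2, sodium-coupled glutamine carriers, SLC7A5, the light chain of a leucine exchanger, SLC39A10, a zinc importer, and SLC4A7, a sodium bicarbonate cotransporter. At the other end, SLC30A9 and SLC39A4, of zinc carrier families, and SLC8A1, a sodium/calcium exchanger, stayed at or below 0.05 in all 15 libraries. Between these ends the members moved more from library to library: the median range over the 15 libraries was 0.24, with 27 members at 0.1 or less and 13 above 0.5.

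**Figure D1:**
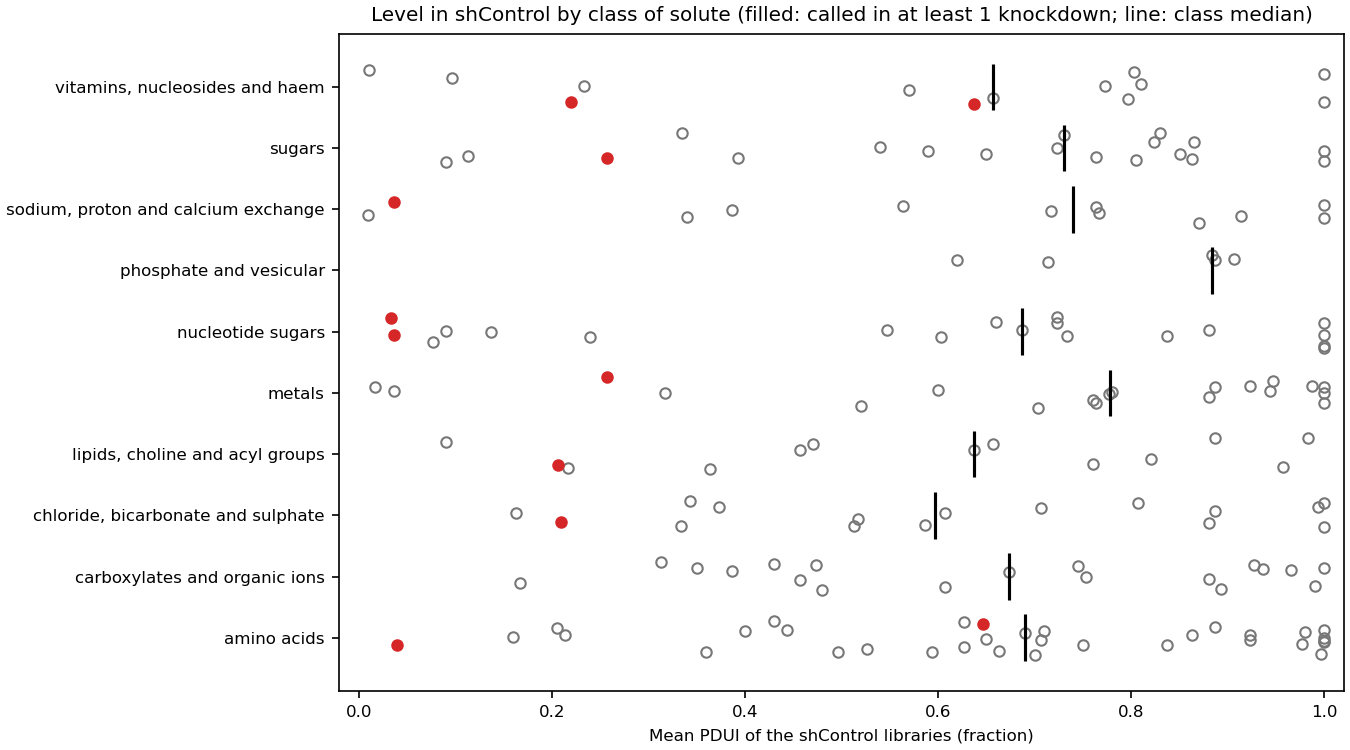
PDUI (fraction) in shControl for each solute carrier with a control value, by class of transported solute. Points are genes (means over shControl libraries), filled where the gene was called in a knockdown, and lines are class medians. The medians run from 0.597 to 0.883 and the classes overlap.

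A fixed set of carriers with well-known roles was read in every library whatever its values, and 17 of its 18 genes were in the table. SLC2A1, the glucose carrier GLUT1, stood low, at 0.07, 0.10 and 0.10 in shControl. Its 12 knockdown libraries lay between 0.06 and 0.11, with the lowest 2 values in shPABPN1. SLC2A3, the glucose carrier GLUT3, stood at 0.59, 0.66 and 0.70 in shControl, but it has a near-identical relative, SLC2A14, with which reads may be shared. SLC1A5, a glutamine carrier, was at 0.62, 0.75 and 0.75 in shControl, and its shPABPN1 libraries, at 0.60 and 0.61, lay below all others. SLC3A2, the heavy chain that partners SLC7A5, was steadier, between 0.40 and 0.50 in all 15 libraries. SLC7A11, the cystine carrier, lacked a value in 5 libraries and ran from 0.13 to 0.68 in the rest, and it could not be tested in shHDAC1, shPCBP2 or shZNF384.

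SLC16A1, a lactate carrier, was between 0.58 and 0.76. SLC12A2, a sodium, potassium and chloride cotransporter, had a shControl spread of 0.57 to 0.91, and its knockdown values lay within it apart from 0.51 in shSF3B4 and 0.50 in shU2AF2. Among metal carriers, SLC30A1, a zinc exporter, ran from 0.66 to 0.87, and SLC39A6, a zinc importer, from 0.70 to 1. The zinc importer's shControl values alone spanned 0.73 to 1. SLC35A2, the Golgi carrier of UDP-galactose, was the least steady of the set, from 0.29 in a shZNF384 library to 1 in shPABPN1 and shU2AF2 libraries, and its shControl libraries differed among themselves at 0.78, 0.41 and 0.79.
SLC19A1, the reduced folate carrier, was the lowest of the set, at 0.08 or less in all libraries. SLC20A1, a phosphate carrier, was at 0.50 in shControl replicate 1 and between 0.53 and 0.75 elsewhere. SLC29A1, a nucleoside carrier, ran from 0.69 to 0.96, and its lowest values, 0.69 and 0.72, were those of shPABPN1. Against shControl, no member of this set passed the test in any knockdown where it had enough values. For SLC1A5, SLC29A1, SLC2A1 and SLC3A2 in shPABPN1, the adjusted p (limma) was 0.244, 0.273, 0.218 and 0.492.

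**Figure D2:**
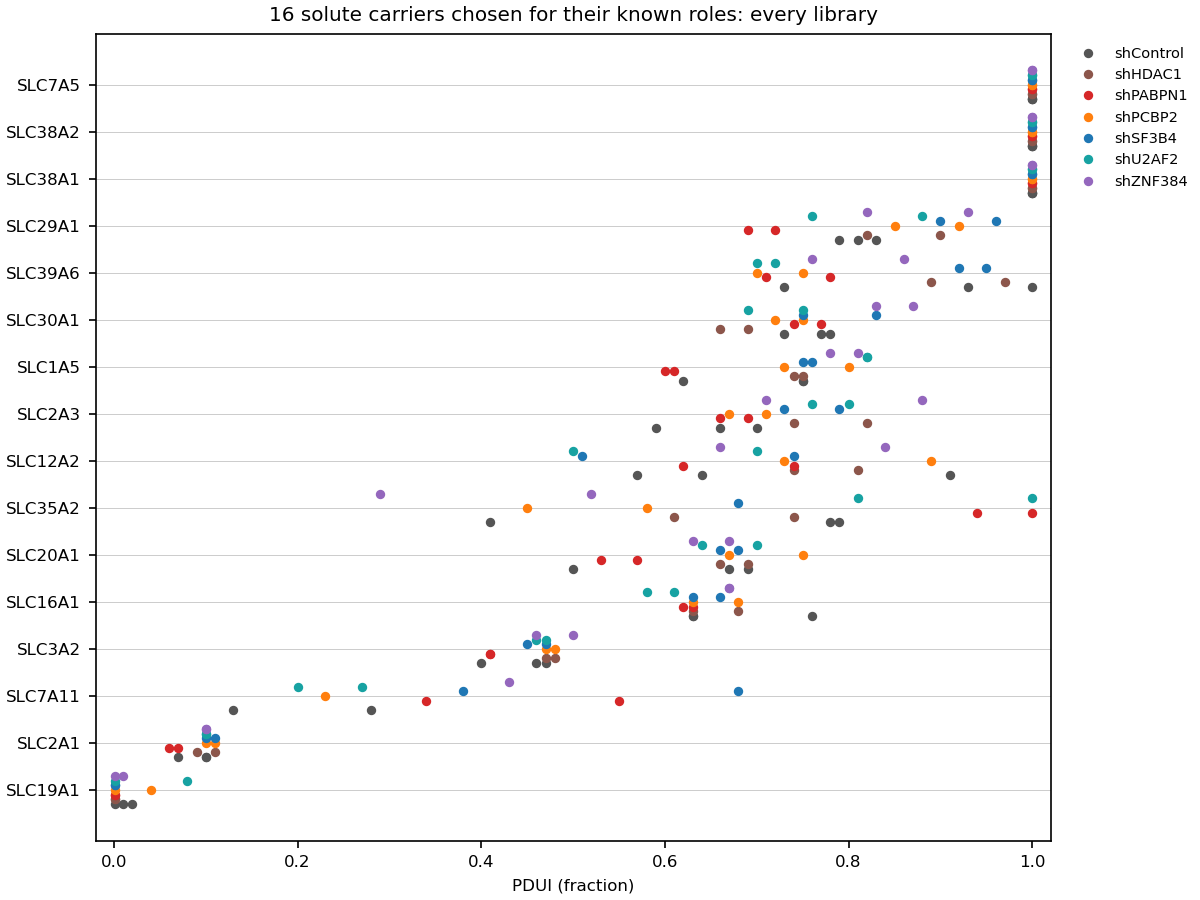
PDUI (fraction) of the carriers chosen for their known roles. Each point is a library, coloured by group; SLC38A1, SLC38A2 and SLC7A5 sit at 1 throughout and SLC19A1 and SLC2A1 near 0.1 or lower, while SLC35A2 spreads from 0.29 to 1.

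Each knockdown was compared with shControl to ask how its loss goes with poly(A) site choice. All 15 libraries entered 1 limma fit across all genes, with Benjamini-Hochberg adjustment over all genes tested in a comparison and a call at an adjusted p under 0.05. The comparisons share the shControl libraries. In all, 13 calls fell on 11 of the 167 carriers tested in any knockdown, where 1550 of 12805 genes were called in any. Of the 11 carriers, 9 were called in 1 knockdown and 2 in 2 knockdowns. Of the 13 calls, 12 were higher and 1 lower in the knockdown. This balance depends on shControl replicate 1: without it there were 20 calls on 14 carriers, 8 higher and 12 lower. The shares of all genes in that fit are given below for each knockdown.
In shPABPN1, 5 of 159 tested carriers rose and none fell, or 3.14%, where 4.72% of all genes were called (3.99% higher). In shU2AF2, 4 of 160 rose and none fell, or 2.5%, where 7.27% of all genes were called (5.88% higher). In shSF3B4, 2 of 157 rose and 1 fell, or 1.91%, where 5.42% of all genes were called (4.26% higher and 1.16% lower). In shZNF384, 1 of 162 rose, where 1.5% of all genes were called (1.44% higher). No carrier was called by limma in shPCBP2 (0 of 162, 17 at an unadjusted p under 0.05, 1.17% of all genes called) or in shHDAC1 (0 of 163, 10 at an unadjusted p under 0.05, 0.0243% of all genes called), and no other tool was run. The remaining carriers, from 154 to 163 per knockdown, were not called.

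The median difference over tested carriers was -0.00667 in shPABPN1, 0.00108 in shU2AF2, 0.00333 in shSF3B4, 0.0133 in shPCBP2, 0.0325 in shZNF384 and 0 in shHDAC1. Over all genes it was -0.00933, 0.0117, 0.0117, 0.015, 0.0233 and 0.00333. The standard errors were larger in carriers, with a median of 0.0579 against 0.0482 in the comparison of shSF3B4.
Carriers called in any knockdown were mostly those with low control values: 4 of the 12 tested with a shControl mean under 0.1, 5 of 38 from 0.1 to 0.5, 2 of 80 from 0.5 to 0.9 and 0 of 37 above 0.9. The shares called over all genes in the same ranges were 31.8%, 19.1%, 4.66% and 5.68%.
Without shControl replicate 1, 10 of 156 tested carriers were called in shPABPN1, 4 higher and 6 lower, where 8.6% of all genes were called (4.26% higher and 4.34% lower). In shU2AF2, 6 of 156 were called, 3 higher and 3 lower, where 6.44% of all genes were called (5.02% higher and 1.42% lower). In shSF3B4, 4 of 153 were called, 1 higher and 3 lower, where 4.44% of all genes were called (3.28% higher and 1.16% lower). No carrier was then called by limma in shZNF384, shPCBP2 or shHDAC1 (18, 17 and 5 at an unadjusted p under 0.05), where 0.508%, 0.471% and 0.0326% of all genes were called. When only the compared groups entered the fit, of the 13 calls just those of SLC35C2 held. With each library centred on its median, just the 5 calls in shPABPN1 and that of SLC6A8 in shSF3B4 held. Centring subtracts 1 constant per library, from -0.064 to 0.036, which is as large as the values of carriers near 0. For such carriers, here and below, a call lost with centring cannot tell a lost shift from spread added by the constants.

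**Figure D3:**
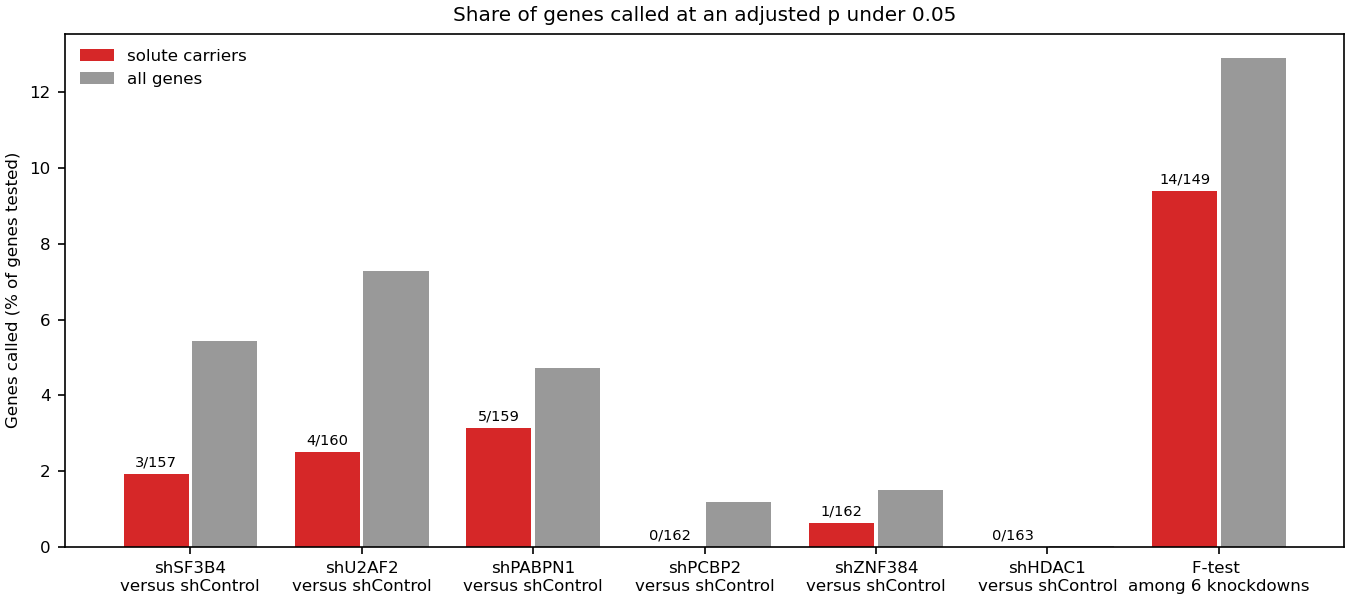
Share of tested genes called at an adjusted p under 0.05 (percent), for solute carriers and for all genes, in the comparisons with shControl and the F-test. Labels give the number of carriers called and tested. The carriers' share is below that of all genes in each comparison shown, but the comparisons share libraries and the difference in share was not tested.

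Of the 5 carriers that rose in shPABPN1, SLC49A4, SLC48A1 and SLC33A1 are proteins of organelle membranes. SLC49A4, a lysosomal membrane protein listed in GENCODE 29 as DIRC2, stood at 0.22 in each of the 3 shControl libraries. With shPABPN1 its values were 0.38 and 0.35, above every other library, the next highest being 0.30 in shPCBP2. It rose from 0.22 ± 0 (SD, n = 3) to 0.365 ± 0.0212 (SD, n = 2), a difference of 0.145 (limma, SE 0.0196, adjusted p = 0.00329). Its last exon spans positions 122879263 to 122881139 of chromosome 3 and overlaps no other gene. The call held when any 1 of the 5 compared libraries was left out.

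SLC48A1, which carries haem out of endosomes and lysosomes, had shControl values of 0.60, 0.65 and 0.66. Both shPABPN1 libraries, at 1 and 0.84, lay above that range. The mean rose from 0.637 ± 0.0321 to 0.920 ± 0.113, a difference of 0.283 (limma, SE 0.0619, adjusted p = 0.0344). The shPCBP2 libraries stood as high, at 0.90 and 0.89, but the difference of 0.258 was not called (adjusted p = 0.118). The last exon overlaps HDAC7 on the opposite strand, and since the counting of strand is not stated, reads of the 2 genes may not be separated. Leaving out any 1 of the shControl libraries or shPABPN1 replicate 1 ended the call (adjusted p from 0.0544 to 0.233, and a difference of 0.203 without shPABPN1 replicate 1).

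SLC33A1 brings acetyl-CoA into the endoplasmic reticulum. It stood at 0.22, 0.20 and 0.20 in shControl and at 0.35 and 0.29 in shPABPN1. These groups did not overlap, while shPCBP2, at 0.26 and 0.33, overlapped with shPABPN1. The rise in shPABPN1 was 0.113 (limma, SE 0.0223, adjusted p = 0.0219). It was not called without shControl replicate 2, without shControl replicate 3 or without shPABPN1 replicate 1 (adjusted p from 0.0637 to 0.154). Its last exon overlaps an unnamed gene, AC104472.3, on the same strand.

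SLC45A4, of a family of proton-coupled sugar carriers, had shControl values of 0.22, 0.28 and 0.27. With shPABPN1 the values were 0.48 and 0.44, above those of every other library. Its mean rose by 0.203 (limma, SE 0.0336, adjusted p = 0.0093), and the call was lost without shPABPN1 replicate 1 (difference 0.183, adjusted p = 0.0772). The shU2AF2 libraries, at 0.18 and 0.17, were the lowest, but their difference from shControl, -0.0817, was not called (adjusted p = 0.223).

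SLC12A4, the potassium-chloride cotransporter KCC1 of the cell surface, was called in both shPABPN1 and shZNF384. It stood at 0.22, 0.21 and 0.20 in shControl, at 0.30 and 0.32 in shPABPN1, and at 0.29 and 0.28 in shZNF384. No value of either knockdown reached down to the shControl range. The rise was 0.1 in shPABPN1 (limma, SE 0.0128, adjusted p = 0.00246) and 0.075 in shZNF384 (adjusted p = 0.0316). The call in shPABPN1 held when any 1 library was left out, and that in shZNF384 was lost whichever library of its 2 groups was left out (adjusted p from 0.0636 to 0.154). Its last exon, at positions 67943474 to 67944931 of chromosome 16, overlaps LCAT on the same strand.

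None of the carriers called in shPABPN1 fell while all 3 shControl libraries were used. Without shControl replicate 1, SLC1A5 was called lower (difference -0.145, limma, adjusted p = 0.0217), as were SLC2A1 (-0.035, adjusted p = 0.0255) and SLC39A6 (-0.22, adjusted p = 0.0247). SLC1A1, SLC35E1 and SLC39A1, which were picked after their values were seen, were also called lower there. In the same fit, SLC1A1, a glutamate carrier, and SLC35E1 were called lower in shSF3B4 (-0.315 and -0.275, adjusted p = 0.0139 and 0.0287) and in shU2AF2 (-0.32 and -0.265, adjusted p = 0.00993 and 0.0258), and SLC39A6 in shU2AF2 (-0.255, adjusted p = 0.0138). SLC1A1 stood at 0.66 in shControl replicate 1 and at 1 in the other shControl libraries, and SLC35E1 at 0.34 against 0.75 and 0.72. In shPABPN1 the same fit no longer called SLC48A1, while SLC12A4, SLC33A1, SLC45A4 and SLC49A4 were still called higher.

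**Figure D4:**
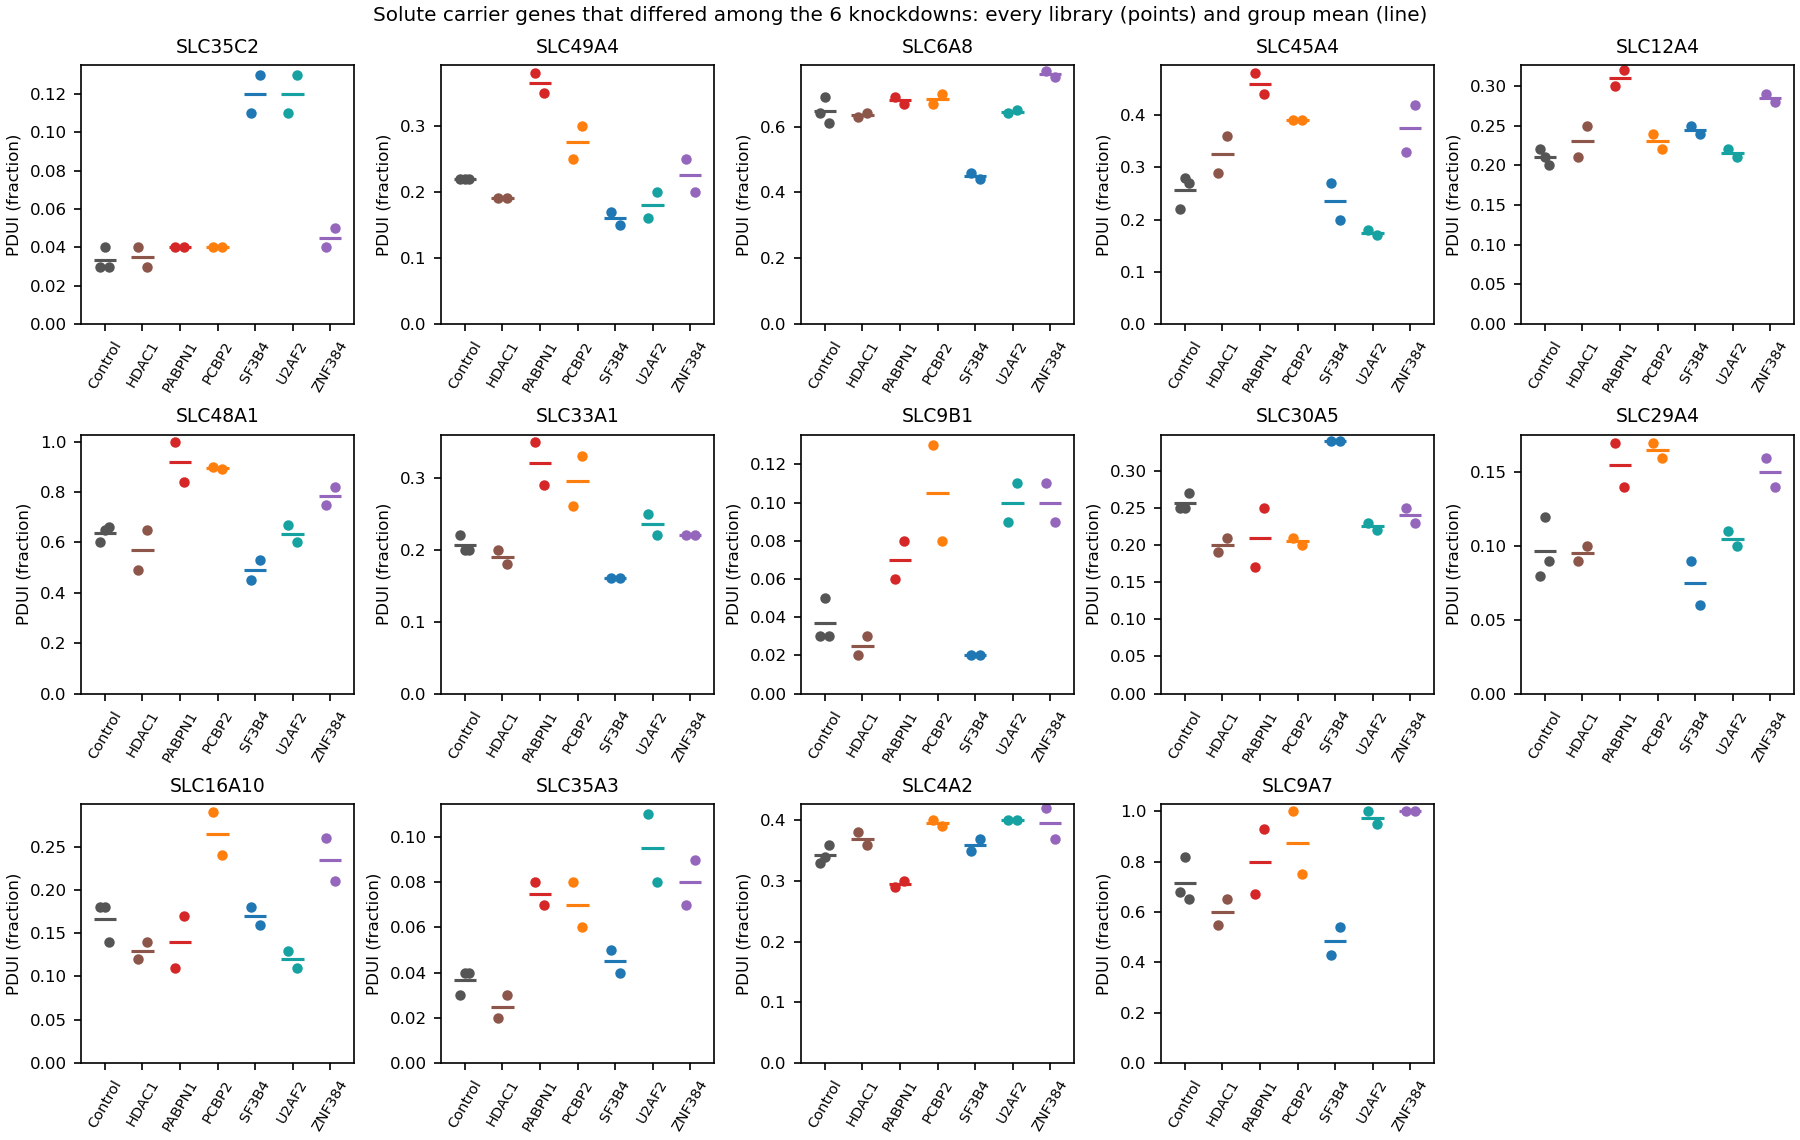
PDUI (fraction) of carriers called in the F-test among the 6 knockdowns. Each point is 1 library, lines are group means and the horizontal axis names the hairpin's target; SLC49A4 and SLC45A4 are highest in shPABPN1, SLC35C2 in shSF3B4 and shU2AF2, and SLC6A8 is lowest in shSF3B4.

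The knockdowns of the 2 splicing factors, SF3B4 and U2AF2, had 1 called carrier in common. SLC35C2, a Golgi membrane protein related to the GDP-fucose carrier, ended mostly at the near site in shControl, with values of 0.03, 0.04 and 0.03. Its values were 0.11 and 0.13 in shSF3B4 and again 0.11 and 0.13 in shU2AF2. The other 8 knockdown libraries lay between 0.03 and 0.05, so these 4 libraries stood apart from all the rest. The difference was 0.0867 in each (SE 0.0076), with an adjusted p (limma) of 0.000261 in shSF3B4 and 0.000176 in shU2AF2. Both calls held when any 1 library was left out. With each library centred on its median the differences were 0.0583 and 0.0633 and were not called (adjusted p = 0.248 and 0.15). The constants of the centring, from -0.064 to 0.036, are as large as the shControl values of this gene. Its last exon covers positions 46345980 to 46350524 of chromosome 20 and overlaps no other gene.

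SLC6A8, the creatine carrier, gave the 1 fall. It stood at 0.64, 0.69 and 0.61 in shControl and at 0.46 and 0.44 in shSF3B4, below every other library. Its mean fell from 0.647 ± 0.0404 to 0.450 ± 0.0141, a difference of -0.197 (limma, SE 0.031, adjusted p = 0.00596). The call was lost without 1 of the shSF3B4 libraries (difference -0.187, adjusted p = 0.0547). In shZNF384 the gene stood at the other end, at 0.77 and 0.75, a difference of 0.113 that was not called (adjusted p = 0.142). SLC6A8 has near-identical pseudogene copies, among which reads may be shared, so its value is uncertain. Its last exon lies at positions 153695074 to 153696593 of the X chromosome.

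SLC30A5 loads zinc into the secretory pathway. It stood at 0.25, 0.25 and 0.27 in shControl and at 0.34 in both shSF3B4 libraries, the highest of all 15. In the other knockdowns it lay between 0.17 and 0.25. The rise was 0.0833 (limma, SE 0.0197, adjusted p = 0.043), and leaving out any 1 of the 5 libraries ended the call (adjusted p from 0.0707 to 0.178), as did an arcsine square root scale (adjusted p = 0.0671). Its last exon overlaps AC010273.1 on the opposite strand.

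Carriers that rose with shU2AF2 had shControl values of 0.05 or less in each library. SLC35A3, the Golgi carrier of UDP-N-acetylglucosamine, stood at 0.03, 0.04 and 0.04 in shControl and at 0.11 and 0.08 in shU2AF2. It rose by 0.0583 (limma, SE 0.0102, adjusted p = 0.00801), though not without shU2AF2 replicate 1 (difference 0.0433, adjusted p = 0.0624). Its last exon, 13252 bases long at positions 100022386 to 100035637 of chromosome 1, holds 12 AATAAA and 13 ATTAAA hexamers. SLC43A2, a carrier of large neutral amino acids, stood at 0.04 in all shControl libraries and at 0.09 and 0.16 in shU2AF2. The rise was 0.085 (limma, SE 0.0167, adjusted p = 0.0142) and held when any 1 library was left out. In shSF3B4 its values of 0.09 and 0.08 also lay above the shControl range, but the gene was not called there.
SLC9B1, of the sodium/proton exchanger family, stood at 0.03, 0.05 and 0.03 in shControl and at 0.09 and 0.11 in shU2AF2. The rise was 0.0633 (limma, SE 0.0143, adjusted p = 0.0286). Leaving out shControl replicate 1, shControl replicate 3 or either shU2AF2 library ended the call (adjusted p from 0.0675 to 0.201). Both shPCBP2 libraries, at 0.13 and 0.08, and both shZNF384 libraries, at 0.11 and 0.09, lay as high without a call. Its last exon of 281 bases overlaps CISD2 on the opposite strand.

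In shPCBP2 and shHDAC1, in which no carrier was called, groups that did not overlap were still found. In shPCBP2, both libraries lay above the shControl range in 19 carriers and below it in 10, or 11.7% and 6.17%, against 16.4% and 5.27% of all genes. In shHDAC1 the counts were 6 and 10, or 3.68% and 6.13%, against 8.18% and 7.07% of all genes. In shZNF384, 33 carriers lay above and 3 below, or 20.4% and 1.85%, against 20.8% and 3.65% of all genes. In shSF3B4, 24 carriers lay above and 16 below, or 15.3% and 10.2%, against 17.1% and 8.3% of all genes. In shU2AF2 the counts were 17 and 17, or 10.6% each way, against 19.2% and 9.83%, and in shPABPN1 they were 18 and 22, or 11.3% and 13.8%, against 12.7% and 13.3%. Without shControl replicate 1 the range is that of 2 libraries, and the counts above and below it were 22 and 20 in shPCBP2, 7 and 23 in shHDAC1, 38 and 13 in shZNF384, 25 and 22 in shSF3B4, 20 and 31 in shU2AF2 and 18 and 50 in shPABPN1. The shares of all genes were then 19.9% and 11.6%, 10.8% and 15%, 24.8% and 8.33%, 20.6% and 15.9%, 22.3% and 18%, and 15.7% and 31.2%.

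The mean of all 6 knockdowns was also set against shControl, which gave 2 called carriers of 149, both higher, where 3.4% of all genes were called (3.11% higher). SLC35C2 was higher by 0.0333 (limma, adjusted p = 0.0122) and SLC12A4 by 0.0425 (adjusted p = 0.0386). The first rests on 2 of the knockdowns, as its library values above show. Neither call held without shControl replicate 1 (adjusted p = 0.07 and 0.0861, with 1.2% of all genes then called by limma and 12 carriers at an unadjusted p under 0.05) or without shControl replicate 3 (0.0735 and 0.178). That of SLC12A4 was also lost without shControl replicate 2 and in 7 of the fits without 1 knockdown library (adjusted p from 0.0559 to 0.123).

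A moderated F-test over the 6 knockdowns asks whether a gene differs among them without using the shControl levels, although all 15 libraries enter the estimate of the spread. It called 14 of 149 carriers, or 9.4%, where 12.9% of all genes were called. Without shControl replicate 1, which enters the spread, it called 20, where 16.5% of all genes were called. Of the 14, 10 were among the 11 carriers called against shControl, a share of 71.4% of one list and 90.9% of the other. Both lists come from the same fit and the same knockdown libraries, so the overlap is partly built in and is not independent support. No such share over all genes is given here. The smallest adjusted p were those of SLC35C2 (0.000289), SLC49A4 (0.00171), SLC6A8 (0.00407) and SLC45A4 (0.00573). The widest span of knockdown means among the 10 carriers with the smallest p was that of SLC48A1, 0.43 (adjusted p = 0.00924). SLC29A4, a plasma membrane monoamine carrier, had no call against shControl and was called here (adjusted p = 0.0154). It stood at 0.08, 0.12 and 0.09 in shControl, at 0.14 to 0.17 in the shPABPN1, shPCBP2 and shZNF384 libraries, and at 0.06 to 0.11 in those of shHDAC1, shSF3B4 and shU2AF2. Its last exon overlaps TNRC18 on the opposite strand. The F-test calls of SLC35C2, SLC49A4, SLC6A8, SLC45A4, SLC48A1, SLC33A1 and SLC29A4 held under all 19 alternatives tried, while that of SLC30A5 was lost without either shSF3B4 library (adjusted p = 0.0872 and 0.0845). With libraries centred on their medians, the F-test calls of SLC12A4, SLC9B1 and SLC30A5 were lost (adjusted p = 0.0657, 0.127 and 0.0584).

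Each knockdown was then set against the mean of the other 5, again without shControl values. The 6 contrasts share libraries, so each is given on its own. They gave 34 calls on 24 carriers, 12 higher and 22 lower. Without shControl replicate 1 there were 41, namely 21 in shPABPN1 (5 higher, 16 lower), 11 in shSF3B4 (4 higher, 7 lower), 5 in shU2AF2 (2 higher, 3 lower), 4 in shHDAC1 (1 higher, 3 lower) and none in shPCBP2 and shZNF384 (13 and 18 at an unadjusted p under 0.05). The shares of all genes called were then 17.6%, 7.4%, 6.76%, 5.92%, 1.35% and 0.846%. In shPABPN1, 14 of 149 were called, 5 higher and 9 lower, where 11.2% of all genes were called (4.19% higher and 7.05% lower). SLC35C2 is among the lower ones, at -0.032 (limma, adjusted p = 0.0186). This contrast has its high shSF3B4 and shU2AF2 values on the other side, and SLC35C2 was not called in shPABPN1 against shControl. The 5 that were higher were the same carriers called against shControl. Both comparisons use the same shPABPN1 libraries and the same fit, so this overlap is partly built in and is not independent support. No such overlap over all genes is given here. SLC49A4 was higher by 0.159 (limma, SE 0.0166, adjusted p = 0.000882). SLC12A4 was higher by 0.069, SLC45A4 by 0.160, SLC33A1 by 0.1 and SLC48A1 by 0.245. Without shPABPN1 replicate 1 the contrasts of SLC45A4 and SLC33A1 were not called (adjusted p = 0.114 and 0.144), nor was SLC12A4 without shPABPN1 replicate 2 (0.0657).
SLC4A2, the chloride/bicarbonate exchanger AE2, was lower, at 0.29 and 0.30 in shPABPN1. The other knockdown libraries lay between 0.35 and 0.42, and shControl stood at 0.33, 0.34 and 0.36, overlapping with them but not with shPABPN1. Its difference was -0.089 (limma, SE 0.0138, adjusted p = 0.00651), and was not called without shPABPN1 replicate 1 (adjusted p = 0.0675) or with centred libraries (difference -0.037, adjusted p = 0.31). Carriers of the set with known roles were called lower as well, with differences of -0.171 for SLC1A5 (adjusted p = 0.0199), -0.169 for SLC29A1 (adjusted p = 0.0288) and -0.037 for SLC2A1 (adjusted p = 0.0256). The median difference in this contrast was -0.032 over carriers and -0.026 over all genes. Whether the falls of SLC1A5, SLC29A1 and SLC2A1 go beyond that shift was not tested, and their values with centred libraries are not given.

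**Figure D5:**
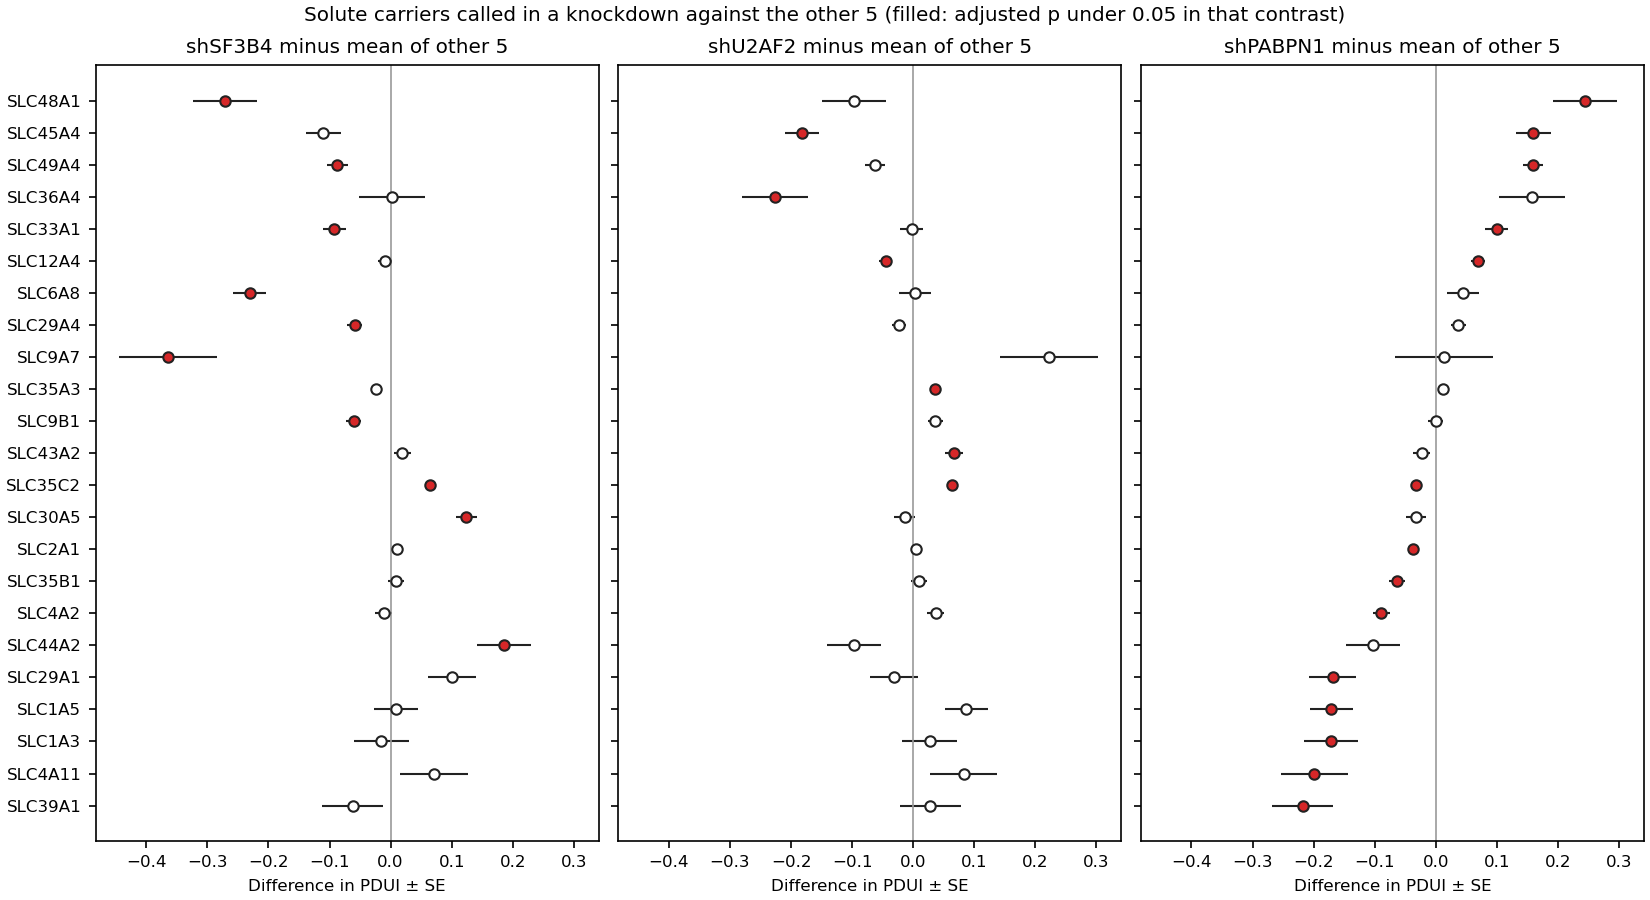
Difference in PDUI (fraction) between shSF3B4, shU2AF2 or shPABPN1 and the mean of the other 5 knockdowns, for the carriers called in any of these 3 contrasts. Bars are ± SE and filled points mark an adjusted p under 0.05; shPABPN1 has 5 called above 0 and 9 below, and shSF3B4 has 3 above and 7 below.

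In shSF3B4, 10 of 149 carriers were called against the other knockdowns, 3 higher and 7 lower, where 6.99% of all genes were called (3.59% higher and 3.39% lower). SLC6A8 was lower, with a difference of -0.231 (limma, SE 0.0263, adjusted p = 0.000842), and SLC30A5 higher by 0.124 (limma, SE 0.0167, adjusted p = 0.0021). Both of these calls held under all 19 alternatives. SLC35C2 was higher by 0.064 (adjusted p = 0.000464), which was not called with centred libraries (difference 0.056, adjusted p = 0.142). SLC48A1 and SLC49A4 were lower, at -0.271 (adjusted p = 0.0144) and -0.087 (adjusted p = 0.0133), in knockdown libraries where they stood at 0.45 and 0.53 and at 0.17 and 0.15. These contrasts include the high values of shPABPN1 on the other side, and neither gene was called against shControl (adjusted p = 0.285 and 0.141). Both were lost without either of the shSF3B4 libraries (adjusted p from 0.0588 to 0.17), SLC49A4 also with centred libraries (0.0727) and SLC48A1 on an arcsine square root scale (0.0729).

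In shU2AF2, 6 carriers were called, 3 higher and 3 lower, where 6.49% of all genes were called (4.46% higher and 2.03% lower). Higher were SLC35C2 by 0.064 (limma, adjusted p = 0.00044), SLC43A2 by 0.067 (adjusted p = 0.0237) and SLC35A3 by 0.036 (adjusted p = 0.0413). SLC45A4 was lower, at -0.182 (adjusted p = 0.00549). This contrast has the high shPABPN1 values of SLC45A4 on the other side, and its difference from shControl, -0.0817, was not called (limma, adjusted p = 0.223). SLC36A4, an amino acid carrier, stood at 0.35 and 0.40 in shU2AF2, where all other libraries lay between 0.47 and 0.74. Its difference was -0.226 (limma, SE 0.0539, adjusted p = 0.04). The call of SLC36A4 was lost in 10 of the 15 fits that left out 1 library, and that of SLC35A3 in 12 (adjusted p from 0.0527 to 0.269 and from 0.0523 to 0.37). That of SLC43A2 was lost without shU2AF2 replicate 2 (difference 0.032, adjusted p = 0.122), and that of SLC45A4 without either shU2AF2 library (adjusted p = 0.0515 and 0.067). With centred libraries the calls of SLC35C2, SLC43A2, SLC36A4 and SLC35A3 were lost (adjusted p = 0.106, 0.221, 0.0555 and 0.404).

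In shPCBP2, 1 carrier was called, where 1.39% of all genes were (0.724% higher). SLC16A10, a carrier of aromatic amino acids, stood at 0.29 and 0.24 in shPCBP2 and at 0.18, 0.18 and 0.14 in shControl. The shZNF384 libraries, at 0.26 and 0.21, overlapped with it. Its difference of 0.106 (limma, SE 0.0201, adjusted p = 0.0436) was lost in 12 of the 15 fits that left out 1 library (adjusted p from 0.055 to 0.311), with centred libraries (0.332) and on an arcsine square root scale (0.0533).
In shHDAC1, 3 carriers were called, all lower, where 5.84% of all genes were called (5.29% lower). The differences were -0.038 for SLC35C2 (limma, adjusted p = 0.01), -0.048 for SLC35A3 (adjusted p = 0.0123) and -0.054 for SLC9B1 (adjusted p = 0.0335). Their shHDAC1 values, 0.02 to 0.04, were within or next to those of shControl, and the same genes are among those called higher in shU2AF2 against shControl. None of the 3 calls held without either shHDAC1 library (adjusted p from 0.0679 to 0.271), and that of SLC9B1 was lost in 7 of the 15 fits. With centred libraries none of the 3 was called (adjusted p = 0.479, 0.283 and 0.336). No carrier was called by limma in shZNF384 against the others (0 of 149, 16 at an unadjusted p under 0.05, 0.646% of all genes called).

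The called carriers were spread over solute classes: 2 of the 34 amino acid carriers (SLC43A2 and SLC6A8), 2 of the 19 in the nucleotide sugar class, 2 of the 13 for vitamins, nucleosides and haem, and 1 each for metals, sugars, lipids and acyl groups, chloride and bicarbonate, and sodium, proton and calcium exchange. No carrier of the class for carboxylates and organic ions or of the phosphate and vesicular class was called against shControl. With 11 of 167 tested carriers called in any knockdown (1550 of 12805 genes), classes of 19 and 5 genes are too small for this absence to set them apart. In the fit without shControl replicate 1 these classes again had none, and the 14 called carriers were 4 for amino acids, 3 for nucleotide sugars, 2 for metals, 2 for sugars and 1 each for chloride, lipids and vitamins. Among the 11, the last exon overlapped an exon of another gene in 5, against 17.1% of all carriers and 25.6% of all genes. The share among the called genes of the whole table is not given, and whether called carriers differ in overlap was not tested.

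Genes that work with solute carriers were counted from 4 lists, of which 98 of 122 genes were in the table: ion pumps and channels, ABC transporters, carriers named outside the SLC scheme, and partners or regulators of carriers. Against shControl, 9 of 95 were called in shU2AF2 (5 higher, 4 lower), where 7.27% of all genes were called. In shPABPN1 4 of 94 were called (all higher, 4.72% of all genes), in shSF3B4 4 of 94 (3 higher, 1 lower, 5.42%), in shZNF384 3 of 95 (all higher, 1.5%), in shPCBP2 1 of 94 (higher, 1.17%) and in shHDAC1 none of 92 by limma (6 at an unadjusted p under 0.05, 0.0243%). Leaving out shControl replicate 1 gave 9 in shU2AF2 (6 higher, 3 lower), 10 in shPABPN1 (5 higher, 5 lower), 2 in shSF3B4 (1 higher, 1 lower) and 1 each in shZNF384 and shPCBP2, where 6.44%, 8.6%, 4.44%, 0.508% and 0.471% of all genes were called. ABCB8, ATP6V0B and ATP2A2 were picked from the called genes of these lists after their values were seen. Their results with a library left out or with centred libraries are not given. ABCB8, a mitochondrial ABC transporter, rose from 0.183 ± 0.0321 to 0.525 ± 0.00707 in shU2AF2 (limma, adjusted p = 5.42e-05) and to 0.400 ± 0.0283 in shSF3B4 (adjusted p = 0.00092). It was also called higher in shZNF384, at 0.305 ± 0.00707 (limma, adjusted p = 0.0467). ATP6V0B, a subunit of the vacuolar proton pump, rose from 0.123 ± 0.0153 to 0.325 ± 0.00707 in shU2AF2 (adjusted p = 1.04e-05), and was also called higher in shPABPN1, shPCBP2 and shZNF384. ATP2A2, the calcium pump of the endoplasmic reticulum, fell from 0.233 ± 0.0153 to 0.185 ± 0.00707 in shSF3B4 (adjusted p = 0.0132) and rose to 0.280 ± 0 in shPABPN1 (adjusted p = 0.0183). It was also called lower in shU2AF2, at 0.195 ± 0.00707 (limma, adjusted p = 0.0307), and higher in shZNF384, at 0.280 ± 0 (adjusted p = 0.0413).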

How the data were processed

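PDUI was deposited by the authors as a fraction from 0.001 to 1, 1 transcript per gene, in 15 libraries, on genome build hg38 per the submitters' processing notes. Which aligner, site caller and annotation were used is not given in the sources used here. Per the labels' protocols, poly(A) RNA was selected with oligo(dT) beads before NEBNext Ultra library preparation, and the strand is not stated. Depth is unknown. Libraries were grouped by title, and the shSF3B4 columns, numbered differently in title and description, were tied to the group alone.

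Fractions entered limma 3.58.1 (R 4.3.3) unchanged, with no pseudocount: 1 mean per group, eBayes with a trend (8 residual degrees of freedom, prior 1.06), two-sided tests, Benjamini-Hochberg adjustment over all genes within each comparison. A gene needed values in both knockdown libraries and at least 2 shControl libraries, or in all 12 knockdown libraries for contrasts among knockdowns and for their mean. The script was tested on simulated data. Transcripts were matched to GENCODE 29 by identifier.

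Members and lists were chosen with earlier results of these data known. Named carriers are those called against shControl with groups that do not overlap, the 5 with the smallest p per contrast with the other knockdowns, the 10 with the smallest p in the F-test and in the mean contrast, those at the ends of the range and a set with known roles; others are said to be chosen after seeing values. The result for 1 gene of that set is not reported here. Alternatives were centring on library medians, an arcsine square root scale, leaving out genes without spread or with missing values, a replicate block, only the compared groups, and leaving out each library.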

Additional observations from a re-analysis of the deposited data

How the results depend on the processing

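Each library left out in turn gave these counts of called carriers: 2 to 5 in shSF3B4, 3 to 6 in shU2AF2, 3 to 10 in shPABPN1, 0 to 1 in shPCBP2, 0 in shZNF384, 0 to 2 in shHDAC1, 0 to 3 for the mean of the knockdowns, 13 to 20 in the F-test and 25 to 41 over the contrasts with the other 5 knockdowns. The reported counts were 3, 4, 5, 0, 1, 0, 2, 14 and 34. The count in shPABPN1 was 10 without shControl replicate 1, 8 without shPABPN1 replicate 2, and 3 without shControl replicate 3 or shPABPN1 replicate 1; that in shSF3B4 was 5 without the first of its columns. With libraries centred on their medians, shSF3B4 had 1 (0 higher and 1 lower, against 2 and 1), shU2AF2 0, shZNF384 0, the mean contrast 0, the F-test 8 and the contrasts with the other 5 knockdowns 18, while shPABPN1 kept a count of 5, all higher. Without genes that lack spread, shZNF384 had 0 and the mean contrast 1. With only the compared groups in the fit, shU2AF2 had 1, shPABPN1 0 and shZNF384 0. The cause was not tested in any of these. SLC30A9 in the mean contrast turned from higher to -0.0133 with centring, which subtracts 1 constant per library, and was not called (limma, adjusted p = 0.709).

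Replicate numbers did not pair the libraries: same-numbered libraries of 15 pairs of groups correlated in their deviations at r = -0.0116 to 0.0468. With a replicate block, and shSF3B4 left out for want of a number, shU2AF2 had 1 call, shPABPN1 1, and shZNF384, shPCBP2 and shHDAC1 0. No block was fitted for shSF3B4, the mean contrast, the F-test and the contrasts with the other 5 knockdowns. Of 881 values of named differences under the alternatives, 737 kept direction and side of the threshold, 141 lost the call, 2 gained one and 1 reversed. The 881 include differences of the mean contrast that were never called, for which keeping the side means staying uncalled. The share kept is therefore not the share of calls that held. Depth is unknown, so its part could not be examined.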

Other observations

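Carriers outside the rule for named genes were also called in the contrasts with the other 5 knockdowns, and these were picked after their values were seen. SLC9A7, a sodium/proton exchanger of the trans-Golgi network, stood at 0.43 and 0.54 in shSF3B4 and at 0.68, 0.82 and 0.65 in shControl. Both shZNF384 libraries were at 1, and those of shU2AF2 at 1 and 0.95. The contrast of shSF3B4 with the others was -0.365 (limma, SE 0.0802, adjusted p = 0.026). It has the high shZNF384 and shU2AF2 values on the other side. SLC44A2, of the choline carrier-like family, went the other way in the same knockdown, at 0.88 and 0.96 (difference 0.185, SE 0.0443, adjusted p = 0.0382), but a shHDAC1 library at 0.90 overlapped with it. Against shControl, neither SLC9A7 nor SLC44A2 was called in shSF3B4 (differences -0.232 and 0.16, limma, adjusted p = 0.263 and 0.142).

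In shPABPN1 the called carriers below the other knockdowns also included SLC39A1, a zinc importer, at 0.58 and 0.55 (difference -0.218, limma, adjusted p = 0.0283). The median difference over tested carriers in this contrast was -0.032, and values with centred libraries are not given for the genes of this paragraph. In shControl the values of SLC39A1 were 0.57, 0.80 and 0.74, so replicate 1 lay with shPABPN1 and the others with the remaining knockdowns. SLC1A3, a glutamate carrier, was at 0.74 and 0.80 (difference -0.171, adjusted p = 0.0423), and SLC35B1, an endoplasmic reticulum carrier, at 0.05 and 0.01 (difference -0.063, adjusted p = 0.02). SLC4A11 was at 0.35 and 0.47, below all other libraries (difference -0.199, adjusted p = 0.0498). None of the carriers of this paragraph was called in shPABPN1 against shControl while all shControl libraries were used.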
